A study of Aedes aegypti with 6 samples.

Results

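Antimicrobial peptide genes of the mosquito Aedes aegypti were followed in whole bodies of larvae and adults from 3 collection locations in Eastern India. The genes were chosen by identifier from a list of 10, with 3 defensins, 1 attacin, 1 gambicin, 1 diptericin and 4 cecropins. The gene tables give identifiers without names, and the class of each gene follows that list. Of the 10, 6 were measured among 19804 genes, namely the 3 defensins, the attacin, the gambicin and the diptericin. The cecropins AAEL000598, AAEL000611, AAEL000621 and AAEL000625 were not analysed here.

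Each of the 6 libraries came from a pool of 10 mosquitoes. The larvae of location 1 (site K1), location 2 (site K3) and location 3 (site C) gave 1 library each, as did the adults of the same locations. The labels name no strain, age, sex, feeding state, infection state or treatment. The tissue label was not checked against markers, since the marker lists were to be found by gene description and were empty. A pooled whole body has no single defining cell type. In such bulk RNA, fewer cells of a type and less RNA per cell cannot be told apart.

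Antimicrobial peptides are small secreted peptides of the insect humoral immune response. In mosquitoes and flies they are made mainly in the fat body, in haemocytes and in surface epithelia such as the gut. Many are induced through the Toll and Imd pathways, which end in NF-kappa-B transcription factors. Defensins are held in shape by disulphide bridges and act mostly on Gram-positive bacteria, whereas attacins and diptericins are rich in glycine and act mostly on Gram-negative bacteria. Gambicin is a cysteine-rich peptide first described in Anopheles gambiae, and cecropins are linear peptides that form amphipathic helices.

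Gene counts, summed over all genes, totalled 12049243 to 18328454 per larval library and 3271618 to 10450701 per adult library. A count of 0 therefore allowed a level of up to 0.164 to 0.249 CPM (counts per 1000000 gene counts) in single larval libraries and 0.287 to 0.917 CPM in single adult libraries, taking 3 counts as the limit. Reads aligned to several places made up 11.5 to 16.2% of the reads in larvae and 36.0 to 62.2% in adults. Such reads are in no gene's count, and the part of this difference in the results below was not tested. Reads that fit near-identical copies of a peptide gene equally well would be among those left out. Gene lengths were not used, so levels are compared between libraries for 1 gene and not between genes. All intervals and limits cover counting error only, and not differences between pools. They treat reads as independent, which reads copied from 1 fragment are not, so they may be too narrow.

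Of the 6 measured genes, 4 had a count in some library. The attacin AAEL003389 and the defensin AAEL003841 had 0 counts in all 6 libraries. Over the 3 libraries of a stage together, this allowed up to 0.0680 CPM in larvae and 0.166 CPM in adults. Among all 19804 genes, 10912 (55.1%) had no count in any library, so 2 of 6 was not a high share. The defensin AAEL003832 and the diptericin AAEL004833 were near this limit, the gambicin AAEL004522 was low and seen at 1 stage, and the defensin AAEL003857 was the single member with a count in every library.

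The defensin AAEL003857 varied widely among pools of the same stage. In larvae it was at 9.96 CPM at location 1 (137 counts, exact 95% interval 8.36 to 11.8), 79.7 CPM at location 2 (960 counts, 74.7 to 84.9) and 55.9 CPM at location 3 (1025 counts, 52.6 to 59.5). In adults it was at 152 CPM at location 1 (1587 counts, exact 95% interval 144 to 160), 284 CPM at location 2 (929 counts, 266 to 303) and 3.44 CPM at location 3 (15 counts, 1.93 to 5.67). The adults of location 2 were the highest of the 6 libraries and the adults of location 3 the lowest, with all 3 larval pools between those of the adults of locations 1 and 3, so the stages overlapped. No 2 of the 6 counting intervals overlapped. The stage mean was 48.5 ± 35.4 CPM (SD, n = 3) in larvae and 146 ± 140 CPM (SD, n = 3) in adults.

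**Figure D1:**
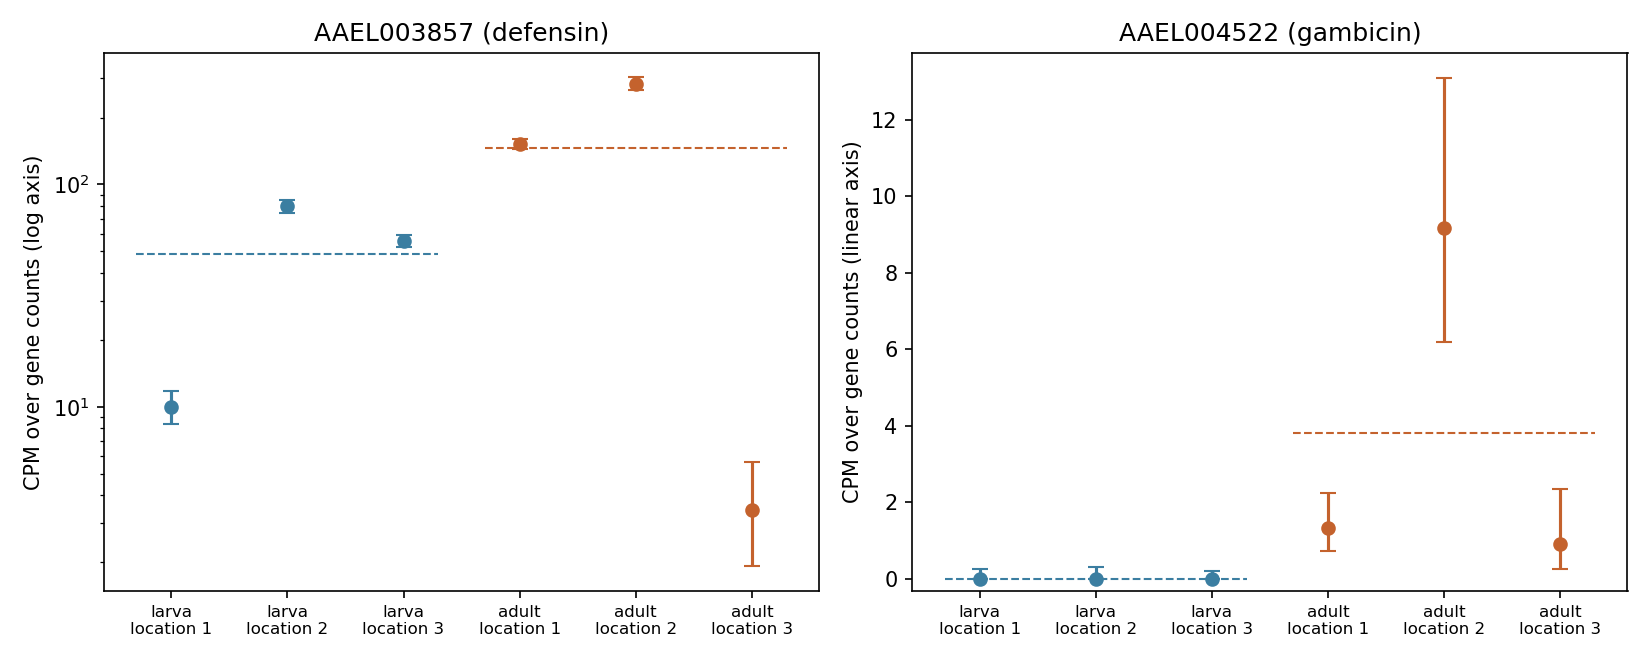
Levels of the defensin AAEL003857 (left, log axis) and the gambicin AAEL004522 (right, linear axis) in CPM over gene counts, 1 point per library with its exact 95% counting interval, and dashed lines at the stage means. For the defensin the adults of location 3, at 3.44 CPM, lie below all 3 larval libraries, and for the gambicin all 3 larval libraries are at 0.

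The direction of the difference between stages was not the same at the 3 locations. At location 1 the adult level of AAEL003857 was 15.2 times the larval level, and at location 2 it was 3.56 times the larval level. At location 3 the larval level was 16.3 times the adult level. Adults were thus higher at locations 1 and 2 and lower at location 3, with 1 pool on each side of each ratio. Of 4936 tested genes with unequal values at every location, 329 (6.67%) had this same order of stages. Adults were higher at every location for 712 genes (14.4%) and larvae for 1809 (36.6%). The direction changed between locations for all the others, so such a change was common.

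Over all 3 locations, edgeR's quasi-likelihood test between the stages called neither of the 2 members that passed the low-count filter, AAEL003857 and AAEL004522. With 0 larval counts, AAEL004522 passed that filter through its adult libraries alone. Over all 5030 genes tested, 9.84% were called at a Benjamini-Hochberg adjusted p under 0.05, with 3.14% higher in adults and 6.70% higher in larvae, and 1182 genes had an unadjusted p under 0.05. The fitted log2 fold change of AAEL003857, adults over larvae, was 1.44 (SE 1.20, edgeR adjusted p = 0.57). Over the same genes the median log2 fold change was -0.41, and it was -0.29 with DESeq2 size factors and -0.53 with library totals. Leaving out 1 library moved the ratio of stage means from 3.02 to 1.60 without the adults of location 2 and to 4.49 without those of location 3. The ratio was 4.44 without the larvae of location 2 and 2.16 without those of location 1. With the low-count filter, none of the 6 fits that left out 1 library called the gene. With no filter, 2 of the 6 called it, without the larvae of location 2 (edgeR adjusted p = 0.03) and without the adults of location 3 (edgeR adjusted p = 0.0396). As pools of different locations stand for replicates here, the p-values measure only the spread between these pools.

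The spread of AAEL003857 within each stage was wide beside that of most tested genes. The SD of log2(CPM + 1) over the 3 adult libraries was 3.24, where the median over 5030 tested genes was 0.84 and 99.8% of them had a smaller SD. Over the 3 larval libraries its SD was 1.54, against a median of 0.66, and 95.1% of the genes had a smaller one. Among the 2029 tested genes with a mean of at least 10 CPM, which the added 1 affects less, 99.5% had a smaller SD in adults and 94.0% in larvae. The highest adult library was 82.5 times the lowest.

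**Figure D2:**
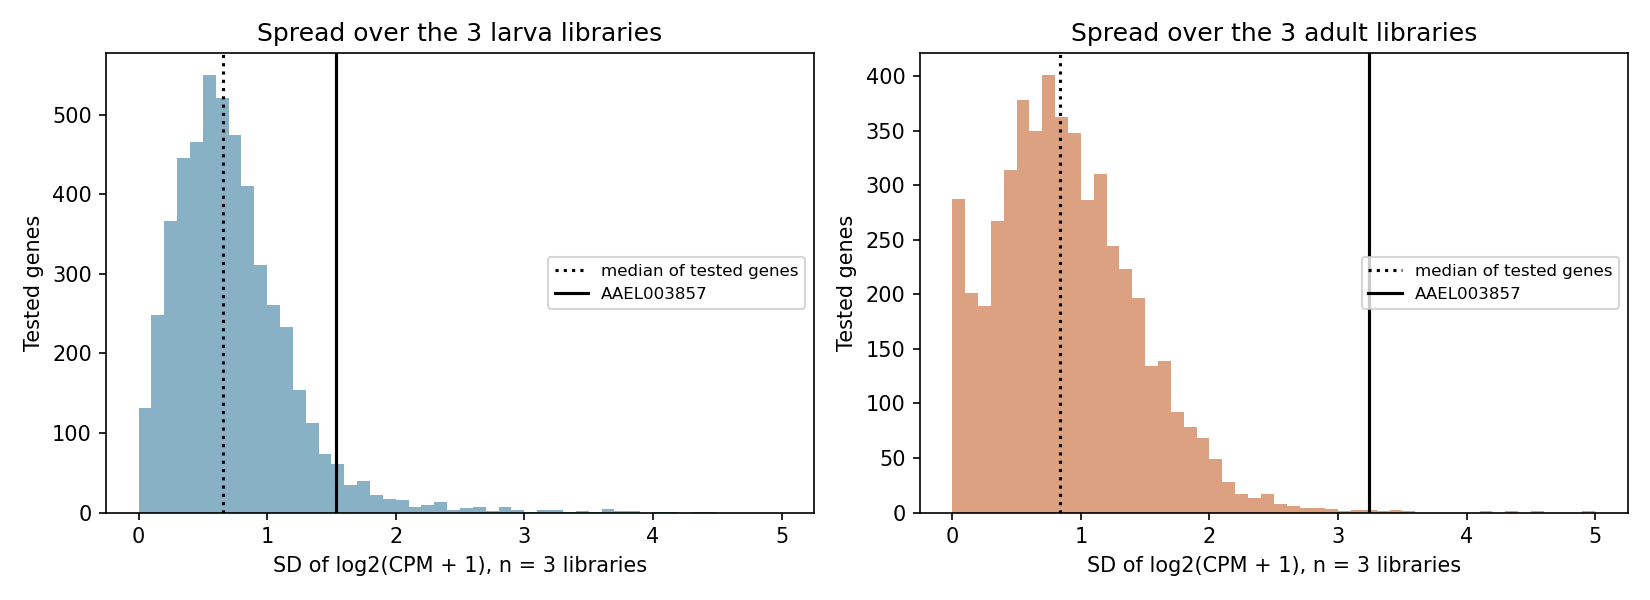
Histograms of the SD of log2(CPM + 1) over the 3 larval libraries (left) and the 3 adult libraries (right) for 5030 tested genes, with a solid line at the defensin AAEL003857 and a dotted line at the median gene. The defensin stands at 1.54 in larvae and 3.24 in adults, against medians of 0.66 and 0.84.

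Between locations, with both stages averaged, AAEL003857 passed no test. Its fitted log2 fold change was 1.19 (SE 1.18) for location 2 over location 1, -0.85 (SE 1.54) for location 3 over location 1 and -2.04 (SE 1.25) for location 3 over location 2, each with an edgeR adjusted p of 1.00. Of the 5030 genes tested, 0%, 0% and 0.0795% were called in these 3 comparisons, all 4 of the called genes higher at location 2 than at location 3, while 107, 97 and 131 genes had an unadjusted p under 0.05. DESeq2's Wald test called 0, 1 and 19 genes, and neither of the 2 members among them. The test averages a difference that ran in opposite directions at the 2 stages for locations 1 and 3. In larvae location 3 was 5.62 times location 1, and in adults location 1 was 44.1 times location 3. Without the larvae of location 3, which leaves location 3 with its adult pool alone and assumes that this pool varies as the others do, the gene was called lower at location 3 than at location 1 (log2 fold change -4.90, edgeR adjusted p = 0.0383) and than at location 2 (-6.93, edgeR adjusted p = 0.00129). The fold change of location 2 over location 1 turned to -0.31 without the larvae of location 1. That of location 3 over location 1 turned to 1.83 without the adults of location 1 and to 1.60 without the adults of location 3.

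The reads of AAEL003857 were unevenly split between the strands. The reverse column held 89.1%, 67.7% and 87.6% of its reads in the larvae of locations 1, 2 and 3. In adults it held 77.7% at location 1, 62.6% at location 2 and 53.3% at location 3, the last from 15 reads (exact 95% interval 26.6 to 78.7%). Over all genes the reverse column held 44.7 to 46.6% per library. Among genes with at least 100 reads in the library, the median share was 46.8 to 48.8%, and the 95th percentile lay below the share of AAEL003857 in 4 of the 5 libraries where it had 100 reads, all but the adults of location 2. The forward and reverse counts summed to the count for both strands in every library, so no read of this gene was set aside for an overlapping gene on the opposite strand. Each strand alone gave the same order of stages at each location. In forward reads adults were 32.0 and 4.17 times larvae at locations 1 and 2, and larvae were 4.23 times adults at location 3. In reverse reads the ratios were 12.9, 3.26 and 27.2 in the same order, so their size at locations 1 and 3 differed between strands. Few reads lay behind these, with 15 forward larval reads at location 1 and 7 forward and 8 reverse adult reads at location 3.

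**Figure D3:**
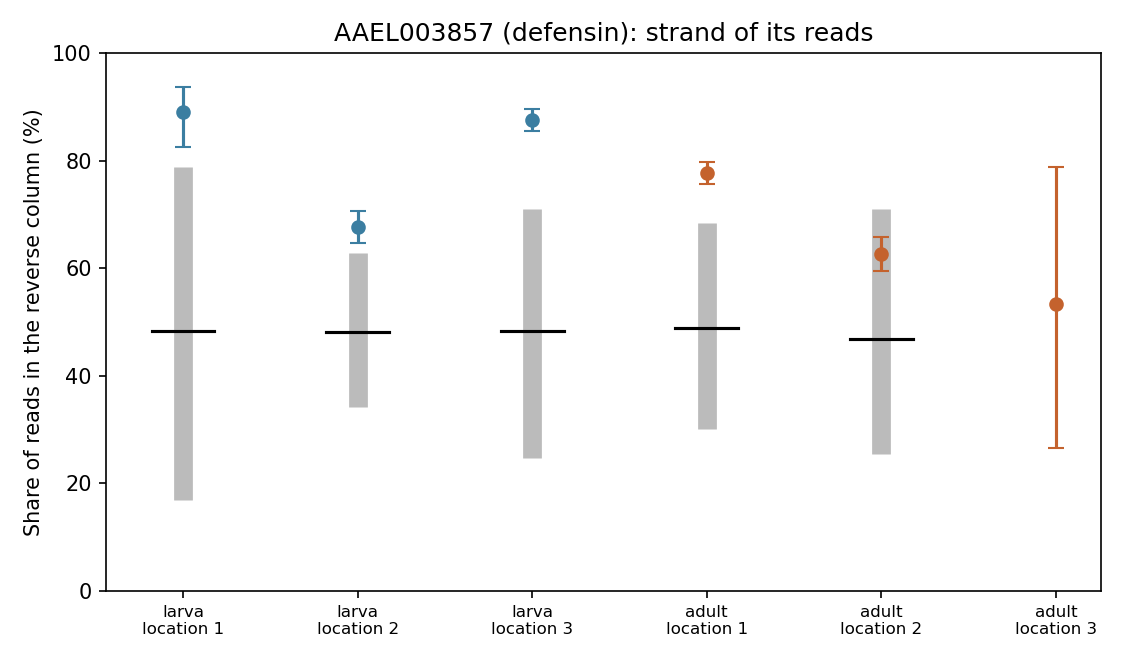
Share of the reads of AAEL003857 in the reverse column, in percent, 1 point per library with its exact 95% interval, over grey bars from the 5th to the 95th percentile and black lines at the median of all genes with at least 100 reads there. The larvae of locations 1 and 3, at 89.1% and 87.6%, stand above the grey bar, while the adults of location 3 had 15 reads and no bar.

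The gambicin AAEL004522 was seen in adults alone. It had 0 counts in each of the 3 larval libraries, in which 44135755 gene counts were made. In adults it had 14 counts at location 1, 30 at location 2 and 4 at location 3, which are 1.34 CPM (exact 95% interval 0.732 to 2.25), 9.17 CPM (6.19 to 13.1) and 0.917 CPM (0.250 to 2.35). Each adult library was above each larval one, the adults of location 2 stood highest, and those of locations 1 and 3 had overlapping intervals. For the larvae of locations 1 and 2, the exact 95% intervals around 0 counts ended at 0.268 and 0.306 CPM. The interval of the adults of location 3 overlapped both. The adult mean was 3.81 ± 4.65 CPM (SD, n = 3). Summed over the 3 adult libraries, the 48 counts were 2.65 CPM (exact 95% interval 1.96 to 3.52), at least 39.1-fold higher than the limit of 3 counts over the summed larval libraries. From the lower end of that interval the bound was 28.8-fold. The bound of 39.1-fold from the summed counts became 17.9-fold without the adults of location 2 and 22.8-fold without the larvae of location 3. Without the adults of location 1 it became 65.5-fold.

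The stage difference of the gambicin depended on the test. The edgeR adjusted p was 0.0607, with an unadjusted p of 0.00684, so it was not called. The gambicin had entered this fit through its adult counts alone, so the filter was not neutral to the direction tested. DESeq2's Wald test called it (adjusted p = 0.000597), as did edgeR with no low-count filter (adjusted p = 0.0423). That second call ended when location was a block (adjusted p = 0.322) and in 4 of the 6 fits without 1 library, at edgeR adjusted p-values of 0.0883, 0.16, 0.174 and 0.311 without the larvae of locations 1, 2 and 3 and the adults of location 2. With location as a block the edgeR adjusted p was 0.219, and in the 6 fits that left out 1 library it ran from 0.111 to 0.183. Of the 8892 genes with any count, 57 (0.641%) were like the gambicin in having no larval count and a count in all 3 adult libraries, and 398 (4.48%) had the reverse pattern. Forward and reverse reads were equal in all 3 adult libraries, at 7 and 7, 15 and 15, and 2 and 2. Between locations its edgeR adjusted p was 1.00 in all 3 comparisons.

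The other 2 members with counts were too low for a comparison. The defensin AAEL003832 had 6 counts in the larvae of location 2, or 0.498 CPM (exact 95% interval 0.183 to 1.08), and 0 in the other 5 libraries. Over the summed larval libraries it was at 0.136 CPM, below the 0.166 CPM that 0 counts over the 3 summed adult libraries allowed. A stage difference was therefore not detectable at this depth. The diptericin AAEL004833 had 1 count in the larvae of location 2, 2 counts in the adults of location 2 and 0 in the other 4 libraries. Neither passed the low-count filter, and with no filter the fit called neither.

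Location 2 gave the highest level of AAEL003857 at both stages and of AAEL004522 in adults. Of all libraries, the adults of location 2 had the fewest gene counts (3271618) and the fewest genes with a count (3305). They also had the largest share of reads aligned to several places (62.2%). The part of this in their levels was not tested. In the larvae the level of AAEL003857 at location 2 was 1.42 times that at location 3. Over all genes with a count at the stage, 31.1% of 8254 were highest at location 2 in larvae and 26.8% of 6885 in adults. AAEL003832 in larvae and AAEL004833 at both stages were counted at location 2 alone, so that no other location could be higher. In larvae 17.8% of these 8254 genes were counted at location 2 alone, against 1.39% at location 1 alone and 3.50% at location 3 alone. In adults 2.34% of these 6885 genes were counted at location 2 alone, against 11.3% and 15.8% at locations 1 and 3. Both counts of AAEL004833 lay under the limit of 3 counts.

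Among 5029 other tested genes, AAEL027120 and AAEL022578 had the level pattern most like AAEL003857, with Pearson correlations of log2(CPM + 1) over the 6 libraries of 0.97 for both. Of these genes 18 had a correlation over 0.9, and the median was -0.13. AAEL027120 was at 0 in the larvae of location 1 and the adults of location 3, and at 1.16 to 2.75 CPM in the other 4 libraries. AAEL022578 ranged from 25.2 CPM in the adults of location 3 to 57.7 CPM in those of location 1, a narrower range than that of the defensin. With 6 libraries that share 3 locations and 2 stages, this is a description of these pools.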

How the data were processed

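Whole-body RNA was sequenced as paired ends of 150 bases, per the labels' protocols. The submitters' processing notes list STAR, fastp, cutadapt, FastQC and edgeR without versions. The genome build, like the annotation, is not given in the sources used here. Deposited gene tables hold raw counts per gene in 3 columns (unstranded, forward, reverse). The 4 summary rows at the top were left out of library sizes and tests. They made up 69.3 to 92.3% of reads. The column for both strands was used, and CPM is over gene rows.

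Fits ran on the whole table in R 4.3.3 with edgeR 4.0.16 (TMM, filterByExpr on stage, glmQLFit, glmQLFTest, Benjamini-Hochberg adjustment, threshold 0.05), with stage alone for larvae against adults and stage plus location for the location pairs. DESeq2 1.42.0 was an alternative. The stage test was tested on simulated data. SE is the log2 fold change over the square root of F. Intervals are Clopper-Pearson at 95% (Python 3.11.15, scipy 1.17.1), and 3 counts were the limit of detection.

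The members and lists were chosen with earlier results of these data known. All 10 members are named by rule, with the 2 genes most like the member of highest mean CPM. Of 19804 identifiers 0 matched the reference table of AaegL5.0, which gives no descriptions. The lists of Toll and Imd pathway genes and of stage and tissue markers, to be found by description, were therefore empty. The junction tables were not used.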

Additional observations from a re-analysis of the deposited data

Results flagged for a closer look

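The stage difference of the defensin AAEL003857 ran in opposite directions at different locations. The adult level was 0.0615 of the larval level at location 3, against ratios of 15.2 at location 1 and 3.56 at location 2, and the counting intervals of the stages were apart at each location. With 1 pool per stage and location, the difference between locations in this ratio was not tested. A change of direction was common, as only 14.4% of 4936 tested genes were higher in adults at every location and 36.6% higher in larvae.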

How the results depend on the processing

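Of the antimicrobial peptide genes, 0 were called between the stages, and 1, the gambicin AAEL004522, was called with DESeq2's Wald test, with no low-count filter and with both together. The location block gave 0 as well, and leaving out 1 library gave 0 to 0. Without the filter, the block gave 0 (AAEL004522 at an adjusted p of 0.322), leaving out larva replicate 1, larva replicate 3 or adult replicate 2 gave 0, leaving out larva replicate 2 gave 1, AAEL003857 (adjusted p = 0.03), leaving out adult replicate 1 gave 1, AAEL004522 (0.0493), and leaving out adult replicate 3 gave 2, both genes (0.0396 and 0.0377). Between locations 1 and 2 leaving out 1 library gave 0 to 0 members, and for each other pair 0 to 1, the 1 being AAEL003857 without larva replicate 3. The fold changes of AAEL003857 in these fits ran from 0.84 to 2.26 for stage, -0.31 to 5.23 for locations 1 and 2, -4.90 to 1.83 for locations 1 and 3, and -6.93 to -0.40 for locations 2 and 3, and those of AAEL004522 from 7.07 to 8.79, 1.70 to 2.38, -0.90 to -0.22 and -2.83 to -2.26. For AAEL004522, 6 location fits gave no value, since leaving out the adults of a compared location left it without a count. The cause was not tested. Larvae and adults of the same location share a collection site, but their deviations from the stage means did not move together, with correlations of -0.0198, 0.0197 and -0.00523 over genes. With the location number as a replicate block, AAEL003857 had a log2 fold change of 1.04 (adjusted p = 0.758) and AAEL004522 of 7.59 (0.219), and 177 genes were called higher in adults and 360 in larvae, against 158 and 337. Over all genes DESeq2 gave 352 and 617 of 5001, no filter 294 and 517 of 8892, and both together 390 and 628 of 8830. Between locations 2 and 3, over all genes, the count of 4 was 9 with DESeq2 size factors, 7 with library totals, 19 with DESeq2's test, 49 with no filter, 1 with the forward column and 13 with the reverse column. The reverse column and the combined settings were chosen after seeing the data. The junction test was not run. Depth limits single adult libraries to 0.287 to 0.917 CPM.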
